A study of Homo sapiens with 3 samples.

Results

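The genes described here are the expressed ZNF genes, the largest family of human transcription factor genes, whose proteins carry zinc fingers, short folds held by a zinc ion. Of 529 ZNF symbols (the letters ZNF, a number and at most 1 further letter) in the expression tables, 226 reached 5 FPKM as a mean of the 3 libraries and are the members. They were chosen by this mean of the measured FPKM. FPKM are fragment numbers scaled to transcript length and to sequencing depth. Another 203 ZNF symbols averaged 1 to below 5 FPKM, and 100 averaged below 1 FPKM, of which 21 were listed at 0 in all libraries. Because the levels chose the members, the levels are given as a description and are not tested.

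Messenger RNA was sequenced from HEK293 cells, an established line from human embryonic kidney. The tested cells were the numbered clones 114 and 174, with the genotype partial KANK1-KO, made by lipid transfection of a plasmid encoding Cas9 and a guide against KANK1 just past its first start codon, with 3 days of culture after transfection. KANK1 codes for a cytoplasmic scaffold found at focal adhesions, where it meets microtubule ends. The control was 1 library of HEK293 cells with the genotype control and the treatment none. It was taken as unedited, although its treatment protocol label repeats the transfection text. The groups are therefore 2 clones against 1 control, and each clone is 1 library of 1 edited line. Whether the libraries came from separate cultures or passages is not stated. Passage, clonal origin and the edit cannot be told apart. The p-values reflect the spread of these libraries alone, which may be technical. KANK1 stood at 3.63 FPKM in clone 114, 3.43 FPKM in clone 174 and 4.49 FPKM in the control (log2 change -0.28, SE 0.40, limma with Benjamini-Hochberg adjusted p = 1.00).

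Depth estimated from the value of 1 fragment was 16.8 M fragments in clone 114, 17.0 M in clone 174 and 16.4 M in the control (M, mega). Members held 0.606% of the summed FPKM in clone 114, 0.621% in clone 174 and 0.556% in the control, and none was listed at 0. Kidney and neuronal genes reported for HEK293 were present, with 5 of 6 at 1 FPKM or more in some library and a summed level of 47.1 FPKM in clone 114, 80.7 in clone 174 and 72.0 in the control. Of the blood markers, 3 of 4 were at 0 in every library, and the endothelial and liver markers stayed at or below 0.420 FPKM each. Of 4 fibroblast markers, 2 reached 1 FPKM, and the list summed to 3.39 FPKM in clone 114, 5.50 in clone 174 and 2.94 in the control. The part of these marker differences in the results was not tested.

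Many ZNF proteins join an array of DNA-binding fingers to a KRAB box, a repression domain that recruits TRIM28, which in turn brings the histone methyltransferase SETDB1 and HP1 proteins to the bound site. KRAB-ZNF genes spread by tandem duplication, above all in clusters on chromosome 19, and many of their proteins bind and silence retroelements. Other ZNF proteins have no KRAB box and activate transcription or act on RNA, ribosomes or the spindle.

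Promoter sequences of 4 members on chromosome 19 are shown because they stand for the patterns described next. ZNF83 and ZNF528 had the largest excess in clone 174, and ZNF91 and ZNF43 had the largest excess in clone 114 among all members. Each is the 250 bases before the start of transcription in RefSeq (build GRCh38.p14), 5′ to 3′ on the strand of the gene, with CG dinucleotides, the sites of DNA methylation, in capitals; methylation itself was not measured. The window of ZNF83 is chr19:52690497-52690746 on the minus strand and that of ZNF528 is chr19:52397599-52397848 on the plus strand. The window of ZNF91 is chr19:23395472-23395721 and that of ZNF43 is chr19:21836183-21836432, both on the minus strand.
ZNF83: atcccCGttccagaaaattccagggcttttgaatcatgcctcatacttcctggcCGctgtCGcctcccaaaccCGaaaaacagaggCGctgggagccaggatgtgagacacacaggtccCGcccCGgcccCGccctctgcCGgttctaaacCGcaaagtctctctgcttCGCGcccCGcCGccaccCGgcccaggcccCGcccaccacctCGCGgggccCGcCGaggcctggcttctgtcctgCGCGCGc
ZNF528: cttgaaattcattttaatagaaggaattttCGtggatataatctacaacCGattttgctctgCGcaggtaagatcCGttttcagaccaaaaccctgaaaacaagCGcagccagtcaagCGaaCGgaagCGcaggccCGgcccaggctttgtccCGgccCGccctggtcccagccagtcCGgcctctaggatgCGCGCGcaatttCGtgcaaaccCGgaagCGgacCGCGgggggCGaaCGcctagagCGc
ZNF91: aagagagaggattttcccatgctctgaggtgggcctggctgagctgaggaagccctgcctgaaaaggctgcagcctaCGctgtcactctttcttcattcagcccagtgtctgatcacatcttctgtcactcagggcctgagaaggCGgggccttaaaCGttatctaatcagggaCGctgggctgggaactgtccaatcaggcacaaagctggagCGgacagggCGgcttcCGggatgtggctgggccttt
ZNF43: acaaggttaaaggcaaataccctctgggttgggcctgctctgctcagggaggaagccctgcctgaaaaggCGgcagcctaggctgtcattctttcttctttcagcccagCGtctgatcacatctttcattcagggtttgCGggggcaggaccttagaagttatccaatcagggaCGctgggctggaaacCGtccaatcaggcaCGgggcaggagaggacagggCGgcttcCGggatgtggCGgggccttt
The first pair holds 23 CG dinucleotides each, while ZNF91 holds 7 and ZNF43 holds 9. Among the 196 members with a promoter in the RefSeq table the median was 18, against 11 in all 27305 promoters.

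Members ranged widely in level. The member median was 8.10 FPKM in clone 114, 9.79 FPKM in clone 174 and 7.95 FPKM in the control. Of the 226, 173 reached 5 FPKM in each library and 53 fell below it in 1 or 2. Just inside the cutoff, ZNF18 was at 4.85 FPKM in clone 114, 5.27 in clone 174 and 4.89 in the control. Just outside it, ZNF765 was at 4.20 FPKM in clone 114, 6.45 in clone 174 and 4.33 in the control.

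The most abundant member was ZNF711, an X-linked gene mutated in intellectual disability, at 202 FPKM in clone 114, 143 FPKM in clone 174 and 237 FPKM in the control. Its clone 174 level was the lowest of the 3, at 0.602 of the control. ZNF207 encodes BuGZ, a protein of the mitotic spindle that carries BUB3 to kinetochores. It stood at 153 FPKM in clone 114, 148 FPKM in clone 174 and 148 FPKM in the control, nearly level in all libraries. ZNF664 followed at 80.8 FPKM in clone 114, 83.7 FPKM in clone 174 and 93.2 FPKM in the control. ZNF703, a regulator that works through corepressors and is amplified in luminal breast cancer, was at 60.5 FPKM in clone 114, 30.6 FPKM in clone 174 and 48.0 FPKM in the control, so the clones lay on opposite sides of the control. ZNF768, ZNF580, ZNF428, ZNF146 and ZNF664 were lower in both clones than in the control. None of the 10 most abundant members carried a KRAB box in the translated transcripts.

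**Figure D1:**
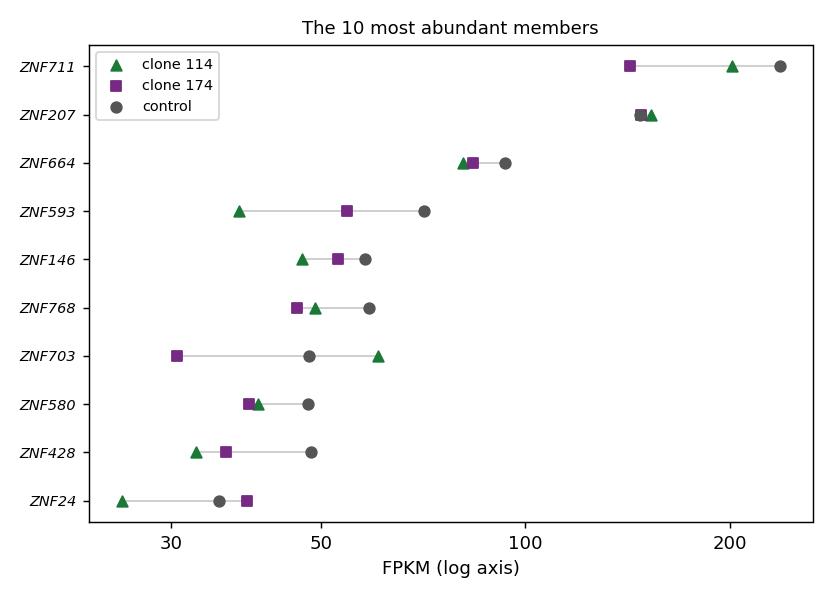
Level of the 10 members with the highest mean, in FPKM on a log axis, with 1 marker per library (clone 114, clone 174 and control) and no error bars because each is 1 library. ZNF711 spans 202, 143 and 237 FPKM, while the 3 markers of ZNF207 nearly coincide.

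The design first asks which members moved together in both clones. With limma across 12577 genes, 10 genes passed at an adjusted p below 0.05 (0.0795% of those tested), and 0 of the 226 members were among them. At an unadjusted p below 0.05, the count was 218 genes (1.73%) and 2 members, ZNF91 and ZNF532. Both clones lay above the control in 80 members (35.4%), against 26.1% of all genes tested, and both lay below it in 50 members (22.1%), against 31.8%. These counts set 2 clones against the same single control library, so a high or low control value moves both clones at once. In bulk RNA, fewer cells that express a gene and less RNA of it per cell cannot be told apart.

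ZNF91, a KRAB member known to repress SVA and LINE-1 retroelements, had the largest shared increase, at 9.89 FPKM in clone 114, 8.50 FPKM in clone 174 and 3.59 FPKM in the control. Both clones were over 2-fold above the control. In its translated transcripts 31 fingers were counted, the highest count of the members, which ZNF142 also had. The log2 change was 1.15 (SE 0.36, unadjusted p = 0.00999), and the adjusted p was 1.00. ZNF532, which has no KRAB box, was at 9.93 FPKM in clone 114, 11.2 FPKM in clone 174 and 5.73 FPKM in the control (log2 change 0.78, SE 0.35, adjusted p = 1.00). A pair of KRAB genes of the chromosome 19 short arm was also higher in both clones. ZNF426 was at 7.24 FPKM in clone 114, 9.30 in clone 174 and 4.26 in the control, and ZNF136 was at 7.10 FPKM in clone 114, 9.08 in clone 174 and 4.46 in the control. ZNF217, an oncogene of breast cancer whose protein works with CoREST corepressors, was at 10.9 FPKM in clone 114, 12.2 FPKM in clone 174 and 7.86 FPKM in the control.

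Of the 10 members with the lowest shared changes, 9 had no KRAB box. ZNF771 stood at 3.76 FPKM in clone 114, 4.65 FPKM in clone 174 and 7.59 FPKM in the control (log2 change -0.73, SE 0.38, adjusted p = 1.00). ZNF598, the ubiquitin ligase that marks collided ribosomes, was at 24.9 FPKM in clone 114, 23.7 FPKM in clone 174 and 35.2 FPKM in the control (log2 change -0.52, SE 0.33, adjusted p = 1.00). Its clone values were close together, both below the control. ZNF593, whose yeast relative Bud20 helps export large ribosomal subunits, was at 37.8 FPKM in clone 114, 54.5 FPKM in clone 174 and 71.0 FPKM in the control. ZNF346, which binds double-stranded RNA, was at 8.86 FPKM in clone 114, 11.5 FPKM in clone 174 and 15.1 FPKM in the control. ZNF267 was the KRAB gene among these 10, at 10.1 FPKM in clone 114, 9.73 FPKM in clone 174 and 13.7 FPKM in the control.

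Single clones were then set against the control and against each other, without a test because each comparison has 1 library per side. Changes are on the scale of log2(FPKM + 1), and 2-fold means a difference of at least 1 on it. Over all members the median change was -0.01 in clone 114 and 0.13 in clone 174, beside -0.01 and -0.05 over all genes tested. Scaling every library to the same FPKM sum raised the median of all genes by 0.17 in clone 114 and 0.09 in clone 174 and turned the members' clone 114 median positive, to 0.16. Changes are therefore read beside those of other genes. In clone 114, 2 members were at least 2-fold above the control, against 1.79% of all genes, and 1 was at least 2-fold below it, against 1.36%. In clone 174, 13 members (5.75%) were at least 2-fold above the control, against 1.93% of all genes, and 0 were 2-fold below it, against 1.62%. The cutoff on the mean favours genes that are high in a single library. With ZNF genes chosen instead at a mean of 5 FPKM over clone 114 and the control, 5 of 210 (2.38%) were 2-fold higher in clone 174, against 0.600% of the 9328 genes chosen the same way. With all 429 tested ZNF genes, 39 (9.09%) were 2-fold higher in clone 174, against 1.93% of all genes tested. The tested level is also a mean that includes clone 174. Some of these genes, such as ZNF320 (0.0905 FPKM in clone 114 and 0.992 in the control), reach it only through that clone.

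ZNF83 showed the widest contrast, at 1.14 FPKM in clone 114, 16.0 FPKM in clone 174 and 2.71 FPKM in the control. Depending on the transcript, this stands for 46.0 to 81.4 fragments in clone 114, 656 to 1159.5 in clone 174 and 106 to 188 in the control. Clone 174 was 5.93-fold above the control, and clone 114 was at 0.422 of it, so the clones moved in opposite directions. ZNF528 was at 2.12 FPKM in clone 114, 11.1 FPKM in clone 174 and 2.05 FPKM in the control, which puts clone 174 alone apart, 5.41-fold above the control. ZNF649, a KRAB member reported on retroelements, was at 3.39 FPKM in clone 114, 12.7 FPKM in clone 174 and 3.02 FPKM in the control. ZNF542P, a pseudogene, was at 5.91 FPKM in clone 114, 19.4 FPKM in clone 174 and 6.07 FPKM in the control, and ZSCAN5A overlaps it in RefSeq.

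ZNF274 encodes a KRAB protein known to bind the ends of other ZNF genes and to bring SETDB1 there. It stood at 9.68 FPKM in clone 114, 25.5 FPKM in clone 174 and 9.92 FPKM in the control, so clone 114 and the control were alike and clone 174 was 2.57-fold above the control. ZNF544 was at 7.35 FPKM in clone 114, 23.9 FPKM in clone 174 and 11.1 FPKM in the control. ZNF772 was at 5.27 FPKM in clone 114, 13.2 FPKM in clone 174 and 4.30 FPKM in the control. ZNF551 was at 4.95 FPKM in clone 114, 13.3 FPKM in clone 174 and 5.99 FPKM in the control. In these 3 genes clone 174 stood apart from the other libraries by more than those differed. ZNF160 was at 4.66 FPKM in clone 114, 9.78 FPKM in clone 174 and 4.17 FPKM in the control. ZNF783, on chromosome 7, was at 4.67 FPKM in clone 114, 10.3 FPKM in clone 174 and 3.74 FPKM in the control, and it was the one gene of the 13 outside chromosome 19.

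Values of genes that share sequence with other genes or overlap them are less certain. ZNF468 was at 3.10 FPKM in clone 114, 12.1 FPKM in clone 174 and 5.19 FPKM in the control. Of its 50-base windows, 99.2% also occur in other genes, with ZNF320 sharing the most. The share with ZNF320 alone is not given. Reads may have been split between ZNF468 and other genes, which was not tested. ZNF28 was at 2.56 FPKM in clone 114, 12.9 FPKM in clone 174 and 4.09 FPKM in the control, and it overlaps ZNF600 in RefSeq. Both genes were highest in clone 174. Over 20% of windows were shared with other genes in 13 of the members, and 120 members overlap another RefSeq gene.

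No member switched fully on or off, if off is below 0.5 FPKM and on is at least 5 FPKM, which 0.612% of all genes met. The 4 ZNF genes that did had means below 5 FPKM and are not members. All 4 lie on chromosome 19 and were on in clone 174. ZNF320 was at 0.0905 FPKM in clone 114, 7.90 FPKM in clone 174 and 0.992 FPKM in the control. ZNF816 was at 0.223 FPKM in clone 114, 6.03 FPKM in clone 174 and 1.51 FPKM in the control. Both were several times higher in clone 174 than in either other library. ZNF600 was at 0.330 FPKM in clone 114, 5.53 FPKM in clone 174 and 0.730 FPKM in the control. ZNF888 was at 0.130 FPKM in clone 114, 5.01 FPKM in clone 174 and 0.749 FPKM in the control. Each was lowest in clone 114 and intermediate in the control. The clone 114 values stand for an estimated 8.65 to 20.1 fragments per gene, so they are imprecise.

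**Figure D2:**
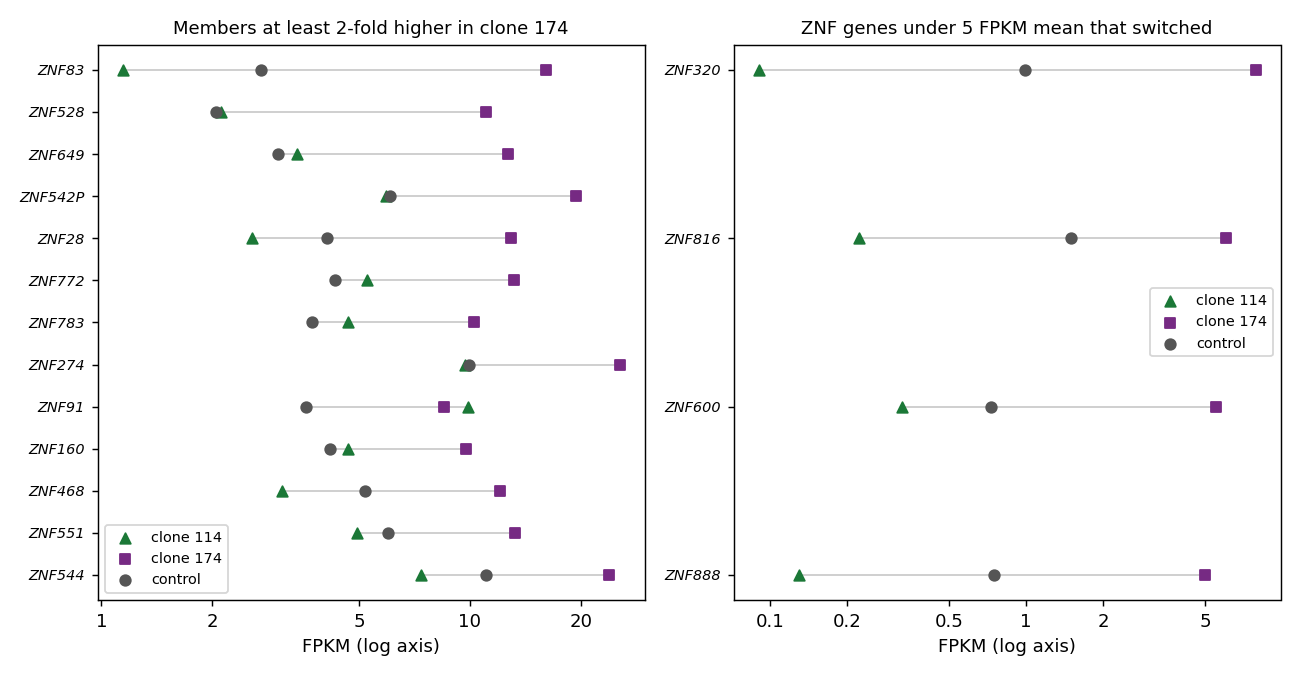
Left, the 13 members at least 2-fold above the control in clone 174, and right, the 4 ZNF genes with a lower mean that switched, in FPKM on log axes with 1 marker per library (clone 114, clone 174 and control). Clone 174 is the highest library for all of them except ZNF91, where clone 114 stands at 9.89 FPKM and clone 174 at 8.50 FPKM.

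Clone 174 against clone 114 uses no control. Here 11 members were at least 2-fold higher in clone 174, against 2.22% of all genes, and 2 were at least 2-fold lower, against 3.55%. These counts share the selection through clone 174. Of the 210 ZNF genes chosen over clone 114 and the control, 5 were 2-fold higher and 2 lower. Of the 9328 genes chosen the same way, 83 were 2-fold higher and 287 lower. The fold of ZNF83 was 14.05, that of ZNF528 5.23 and that of ZNF28 5.04. Each of these genes is a member only through its clone 174 level. In the other direction, ZNF277 was at 5.58 FPKM in clone 174 and 12.6 FPKM in clone 114, with 8.72 FPKM in the control between them. ZNF503, a relative of ZNF703 and like it a transcriptional repressor, was at 16.7 FPKM in clone 174 and 34.4 FPKM in clone 114, with 28.2 FPKM in the control. ZNF703 fell just short of 2-fold, with a log2 difference of -0.96.

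Members with and without a KRAB box had different medians in clone 174. The box was found in 127 of the 223 members with a coding transcript, by at least 8 of 14 conserved residues in translated GENCODE release 29 transcripts. Members with the box had a median of 12 fingers, and the 96 without it had 5.5. The median log2 change in clone 174 was 0.23 with the box and -0.00 without it, and 12 members with the box but 0 without it were at least 2-fold higher, against 1.93% of all genes. These counts share the selection through clone 174. With ZNF genes chosen at a mean of 5 FPKM over clone 114 and the control, 4 of 110 with the box (3.64%) and 0 of 97 without it were 2-fold higher, and the medians were 0.17 with the box and -0.01 without it. In clone 114 the members' medians were 0.04 with the box and -0.09 without it. Split by position, the medians with and without the box differed on chromosome 19 and were close elsewhere. For the 75 KRAB members on chromosome 19 the clone 174 median was 0.39, and for the 52 KRAB members elsewhere it was 0.02. The 18 members on chromosome 19 without the box had a clone 174 median of -0.13, and the 78 elsewhere without it had 0.05. Chosen without clone 174, the medians on chromosome 19 were 0.31 for 64 genes with the box and -0.13 for 18 without it.

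**Figure D3:**
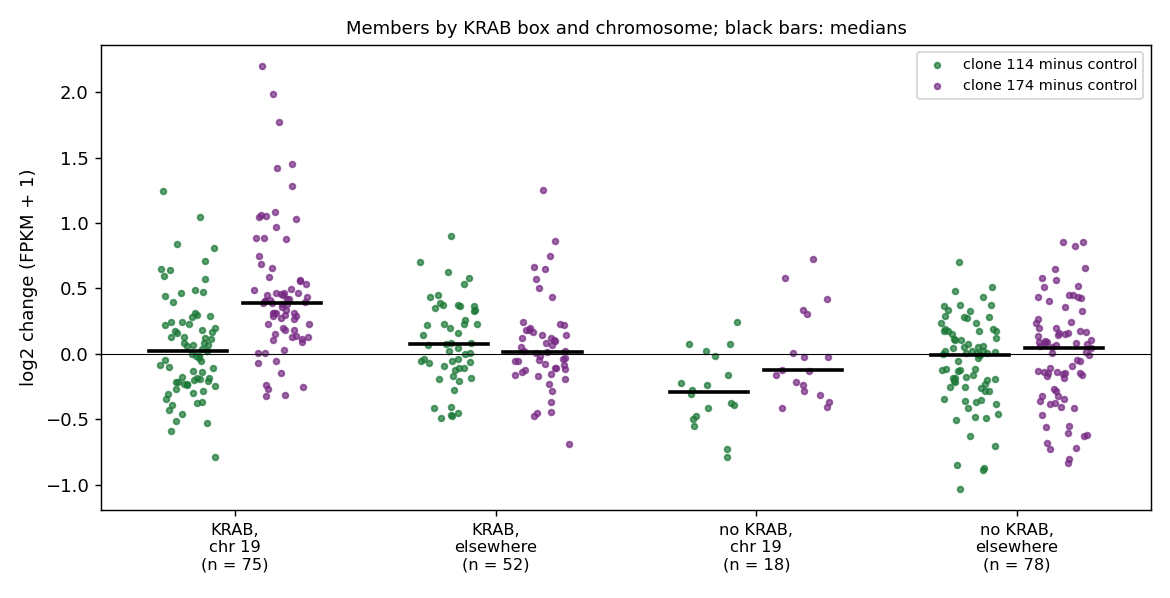
Log2 change of FPKM + 1 against the control for each member, clone 114 left of clone 174 in each pair, by KRAB box and chromosome; black bars are medians and points are single genes of 1 library pair. The KRAB members of chromosome 19 have the highest clone 174 median (0.39).

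Chromosome 19 carried 94 of the members (41.6%), against 7.08% of the genes tested. Their median log2 change was -0.03 in clone 114 and 0.34 in clone 174, while the 666 chromosome 19 genes with no zinc finger symbol had -0.01 in clone 114 and -0.05 in clone 174. Among those genes, 16 (2.40%) were at least 2-fold higher in clone 174, against 12 of the 94 members (12.8%). The genes with no zinc finger symbol entered at a mean of 1 FPKM and the members at 5 FPKM, so the 2 shares differ in level. Chosen without clone 174, 5 of 83 ZNF genes on chromosome 19 (6.02%) were 2-fold higher and the median was 0.29. Other chromosome 19 genes were not chosen in this way.

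The arms of the chromosome differed in clone 114. All 24 members of the short arm were higher in clone 114 than in the control, with a median of 0.42, and 18 of the 70 members of the long arm were, with a median of -0.19. All tested genes with no zinc finger symbol in clone 114 had a median of 0.13 over the 338 on the short arm and -0.20 over the 328 on the long arm, so the median of the long-arm members was near that of their whole arm. In clone 174 the members' medians were 0.31 on the short arm and 0.35 on the long arm, against -0.03 on the short arm and -0.08 on the long arm for those other genes. What part such arm-wide medians have in the members' shifts was not tested.

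ZNF genes with at most 2 other tested genes between neighbours formed 10 runs of at least 5 ZNF genes, a definition made after the values were seen. The third run, ZNF101 to ZNF254 on the short arm, holds 23 tested ZNF genes, 12 of them members. All 12 members were higher in clone 114, with a median of 0.61, and the clone 174 median was 0.14. The run is the last stretch of tested genes on the short arm. The 20 genes before it with no zinc finger symbol had median changes of 0.36 (clone 114) and -0.33 (clone 174), and the 20 after it, on the long arm, had -0.26 (clone 114) and -0.18 (clone 174). The genes before the run thus moved in the same direction as its members in clone 114, by less, and their part in the members' shift was not tested. This run contains ZNF91 and ZNF43, and its promoters had a median of 8 CG dinucleotides. ZNF43 was at 12.7 FPKM in clone 114, 8.34 FPKM in clone 174 and 5.65 FPKM in the control, with clone 114 highest. ZNF254 was at 17.7 FPKM in clone 114, 10.7 FPKM in clone 174 and 9.68 FPKM in the control, with clone 174 close to the control.

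The seventh run, ZNF175 to ZNF331 on the long arm, holds 33 tested ZNF genes, all with a KRAB box in the translated transcripts. All 13 members and all 20 ZNF genes with a mean below 5 FPKM were higher in clone 174 than in the control. Their clone 174 medians were 0.75 for members and 1.29 for the others, and 6 members and 11 others were at least 2-fold higher. All 6 average below 5 FPKM over clone 114 and the control, so they are members only through their clone 174 level. Most of the 11 others reach the tested level of 1 FPKM only through clone 174. These are ZNF808, ZNF701, ZNF600, ZNF320, ZNF888, ZNF816 and ZNF347. The counts and medians of this run in clone 174 therefore share that selection, and no version chosen without clone 174 was made for it. The 4 tested genes in the run with no zinc finger symbol had a median of 0.26 with 0 past 2-fold, and the 40 flanking genes had 0.12 with 2 past 2-fold. In clone 114 the members' median was 0.03 and that of the flanking genes was -0.25. The run holds ZNF649, ZNF528, ZNF83, ZNF28, ZNF468 and ZNF160 and the 4 switched genes, and its promoters had a median of 19 CG dinucleotides. Changes were uneven within it. ZNF480 was at 9.39 FPKM in clone 114, 12.8 FPKM in clone 174 and 9.52 FPKM in the control, a far smaller excess in clone 174 than that of ZNF83.

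The ninth run, ZNF787 to ZNF8 near the end of the long arm, holds 42 tested ZNF genes. In clone 174, 24 of its 26 members and 16 of its 16 other ZNF genes were higher than in the control, with medians of 0.43 and 0.54, and 5 and 4 of them were at least 2-fold higher. These counts share the selection through clone 174. The 28 flanking genes had a clone 174 median of 0.03. The run's members include ZNF274, ZNF544, ZNF542P, ZNF772 and ZNF551. In clone 114, 3 of the 26 members were higher, with a median of -0.23, and the flanking genes had -0.30. In the first run, ZNF414 to ZNF562 on the short arm, 8 of 9 members were higher in clone 174, with a median of 0.41. In the second, ZNF653 to ZNF791 on the short arm, the 2 members had a clone 174 median of 0.66. Of the 15 other ZNF genes there, 5 were at least 2-fold higher in clone 174. The 40 flanking genes of each of these runs had a clone 174 median of 0.04. The selection through clone 174 holds for these runs too. Runs were not alike. The eighth run, ZNF628 to ZNF580, has no KRAB gene, and its 4 members were lower in both clones, with medians of -0.39 in clone 114 and -0.32 in clone 174. ZNF580, the most abundant of them, was at 40.4 FPKM in clone 114, 39.1 FPKM in clone 174 and 47.9 FPKM in the control.

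**Figure D4:**
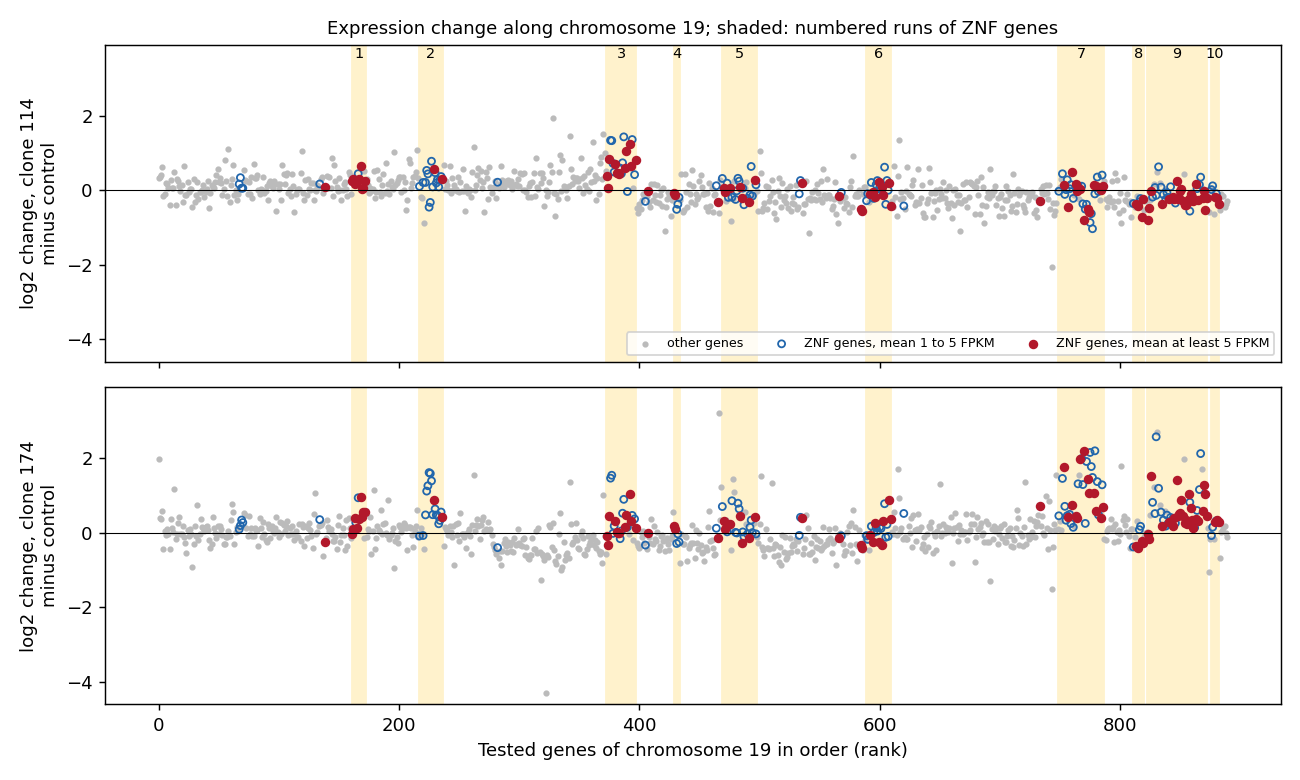
Log2 change of FPKM + 1 against the control for each tested gene of chromosome 19 in gene order, clone 114 above and clone 174 below, with 1 point per gene and numbered shading for runs of ZNF genes. In clone 174 the members of runs 7 and 9 lie above other genes (medians 0.75 and 0.43). Members of runs 1 and 2 do so too (medians 0.41 and 0.66). Members were chosen by a mean that includes clone 174. In clone 114 the members of run 3 have a median of 0.61, beside 0.36 for the 20 genes before the run.

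Off chromosome 19 the 132 members had median changes of 0.00 (clone 114) and 0.02 (clone 174). On some chromosomes members lay near all tested genes of that chromosome, and on others they did not. On chromosome 10 the 9 members had a clone 174 median of 0.19, beside -0.15 for all tested genes. On chromosome 7 the 17 members had median changes of 0.27 (clone 114) and 0.00 (clone 174), beside 0.38 and -0.23 for all 599 tested genes. ZNF655 was at 28.5 FPKM in clone 114, 15.4 FPKM in clone 174 and 17.1 FPKM in the control, and ZNF107 was at 13.8 FPKM in clone 114, 6.67 FPKM in clone 174 and 6.96 FPKM in the control. Both KRAB genes were highest in clone 114. On chromosome 5 the 7 members had median changes of -0.49 (clone 114) and -0.09 (clone 174), beside -0.41 and -0.18 for all tested genes. ZNF622, whose yeast relative Rei1 recycles a factor of large ribosomal subunit maturation, was at 12.4 FPKM in clone 114, 24.8 FPKM in clone 174 and 26.5 FPKM in the control, and was the member 2-fold lower in clone 114. ZNF131, also on chromosome 5, was at 8.99 FPKM in clone 114, 15.1 FPKM in clone 174 and 17.3 FPKM in the control. On chromosome 16 the 21 members had median changes of -0.22 (clone 114) and -0.14 (clone 174), below the 0.09 and -0.01 of all tested genes there. ZNF771, ZNF598, ZNF174, ZNF267 and ZNF668 of the lowest shared changes lie on it.

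**Figure D5:**
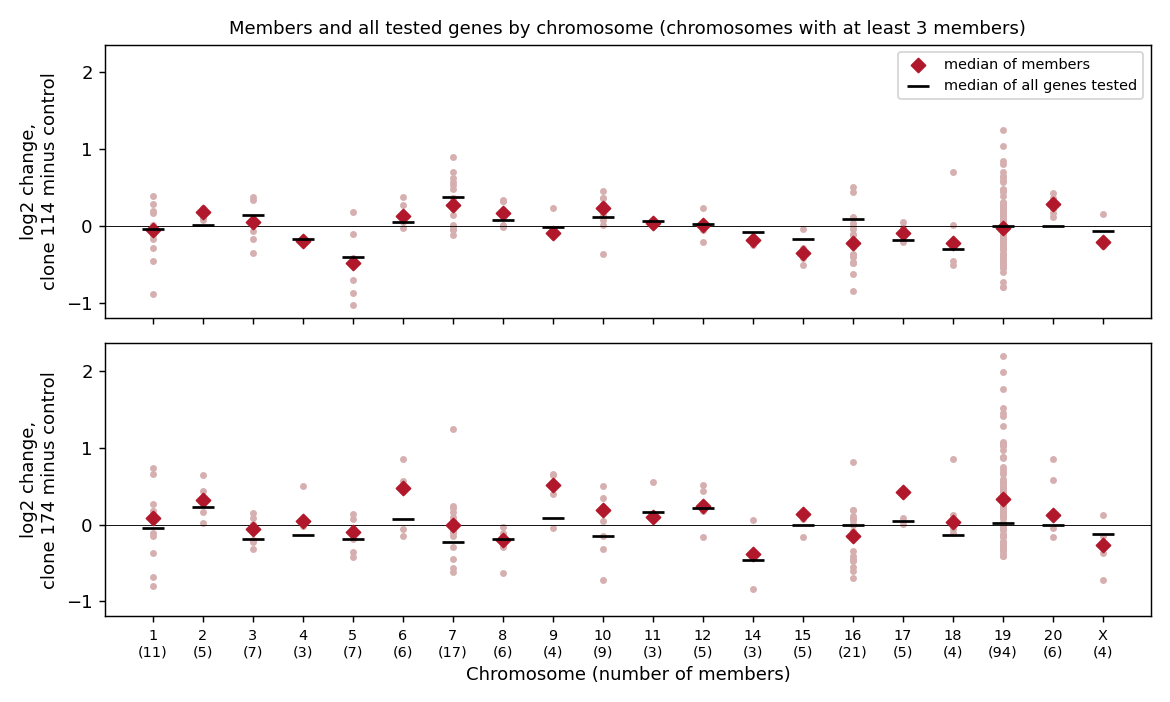
Median log2 change of members (diamonds) and of all tested genes (bars) on each chromosome with at least 3 members, clone 114 above and clone 174 below; pale points are single members. Members of chromosomes 5 and 7 lie near their chromosome's median in clone 114, at -0.49 and 0.27, while those of chromosome 19 lie above theirs in clone 174, at 0.34.

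By role, the lists used here were drawn up with earlier results of these data known. Of the 13 members that act on RNA, ribosomes, SUMO, ubiquitin or the spindle, 4 were higher in both clones (30.8%, against 26.1% of all genes tested) and 5 lower in both (38.5%, against 31.8%), with medians of -0.18 in clone 114 and 0.00 in clone 174, and 0 passed limma. Among them ZNF451, a SUMO ligase, was at 8.90 FPKM in clone 114, 16.2 FPKM in clone 174 and 8.54 FPKM in the control, with clone 174 alone apart. ZNF638, an RNA-binding splicing regulator, was at 24.6 FPKM in clone 114, 28.4 FPKM in clone 174 and 20.8 FPKM in the control. Of the 15 members of a list of transcriptional regulators, which mixes activators such as ZNF143 with repressors such as ZNF703 and ZNF503, 7 were higher in both clones (46.7%, against 26.1% of all genes tested) and 3 lower in both (against 31.8% of all genes). Their medians were 0.17 in clone 114 and 0.01 in clone 174, and 0 passed limma. ZNF143, an activator of many promoters of housekeeping and small nuclear RNA genes, was at 8.74 FPKM in clone 114, 9.10 FPKM in clone 174 and 8.46 FPKM in the control, nearly the same in all. ZNF410, known for its control of CHD4, was at 28.9 FPKM in clone 114, 26.3 FPKM in clone 174 and 34.6 FPKM in the control, with CHD4 itself at 64.3 FPKM in clone 114, 67.3 FPKM in clone 174 and 58.6 FPKM in the control. ZNF410 shares 85.5% of its windows with other genes.

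Of the 10 members known to bind retroelements or imprinted loci, 7 were higher in both clones (26.1% of all genes tested were). In both clones 1 was lower (31.8% of all genes). Medians were 0.15 in clone 114 and 0.48 in clone 174, and 0 passed limma. Of the 127 members with a KRAB box, 41.7% were higher and 12.6% lower in both clones. For the 75 of these on chromosome 19 the shares were 45.3% and 5.33%. In clone 174, 4 of the 10 listed members were 2-fold higher: ZNF91, ZNF274, ZNF649 and ZNF160. This compares with 1.93% of all genes and 9.45% of members with a KRAB box. ZNF649 and ZNF160 are members only through their level in clone 174, and chosen without that clone 2 of 8 listed genes, ZNF91 and ZNF274, were 2-fold higher. Of the 9 listed genes that are not members, 2 were below the level tested, and of the other 7 ZNF93 was 2-fold higher in clone 174. Over those 7 the clone 174 median was 0.20. ZNF766 was at 6.57 FPKM in clone 114, 8.22 FPKM in clone 174 and 5.74 FPKM in the control. ZNF33B was at 7.08 FPKM in clone 114, 7.39 FPKM in clone 174 and 4.91 FPKM in the control.

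KRAB proteins repress through shared cofactors. Of 19 tested genes of the corepressor list, 0 passed limma, 9 were higher in both clones (47.4%, against 26.1% of all genes tested) and 2 lower in both (10.5%, against 31.8%), with medians of 0.13 in clone 114 and 0.06 in clone 174. TRIM28, the shared corepressor, was at 247 FPKM in clone 114, 286 FPKM in clone 174 and 275 FPKM in the control (log2 change -0.05, SE 0.34, adjusted p = 1.00). SETDB1, the histone methyltransferase, was at 16.9 FPKM in clone 114, 22.1 FPKM in clone 174 and 14.2 FPKM in the control. DNMT1, the maintenance DNA methyltransferase, was at 72.2 FPKM in clone 114, 55.8 FPKM in clone 174 and 48.9 FPKM in the control.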

How the data were processed

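Polyadenylated RNA of HEK293 cells was sequenced in 3 libraries. The authors deposited FPKM per gene and library, made with cutadapt 2.10, HISAT2 2.2.1 and Cuffdiff 2.2.1 on build hg19, per the submitters' processing notes; neither settings nor the gene annotation is stated. FPKM are not counts and an exact 0 can be a failed estimate. Of 26237 rows, 28 with a date for a symbol were left out, and 26209 were used. The authors' log2 ratio tables were not used.

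The 12577 genes whose mean reached 1 FPKM entered limma 3.58.1 (R 4.3.3) as log2(FPKM + 1). The eBayes step had a trend, and p-values were adjusted by Benjamini-Hochberg with a threshold of 0.05. The fit has 1 residual degree of freedom, and the control is assumed to vary like a clone. The pseudocount of 1 understates changes of low genes. The fit was tested on simulated data with changes far larger than those of the members. That test does not show how often changes of the members' size would be found. Depth was estimated from the FPKM of 1 fragment on single-transcript genes of at least 1500 bases and at most 0.3 FPKM, with fragments of 200 bases assumed.

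Members and lists were chosen with earlier results of these data known. Named were the 10 highest and 10 lowest shared changes, the 10 highest and 10 lowest between clones, the 10 most abundant members, the 3 genes on each side of the cutoff, list members and switches. Any other gene, such as ZNF783 and ZNF480, was chosen after its values were seen. Chromosomes, gene order and promoters came from RefSeq (GRCh38.p14), KRAB boxes, fingers and shared windows of 50 bases from GENCODE release 29 transcripts. Coordinates of this build were not combined with those of hg19. Flanking genes were up to 20 on each side of a run. Alternatives were another pseudocount, other level filters, 2 other scalings, subtraction of chromosome medians, other folds and leaving out each clone.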

Additional observations from a re-analysis of the deposited data

How the results depend on the processing

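No member passed limma under any of 6 alternative fits, while the genes called in all moved from 10 to 3 with a pseudocount of 0.1, 0 with no filter on low values and 6 after scaling to equal FPKM sums. That scaling raised the median of all genes by 0.17 in clone 114 and 0.09 in clone 174; the members' clone 114 median turned positive, at 0.16, and the chromosome 19 median in clone 174 became 0.43. It left 32 members lower in both clones, 4 at 2-fold higher and 0 at 2-fold lower in clone 114, and 4 at 2-fold lower in clone 174 against clone 114. Relative to all genes, the clone 114 median was then -0.00 and the clone 174 median 0.18. A pseudocount of 0.1 gave 2 members at 2-fold lower in clone 114 and 1 in clone 174. Quantile normalization gave 1 member 2-fold higher in clone 114 and 1 at 2-fold lower in clone 174 against clone 114. Shares of all genes at 2-fold were not computed under these settings.

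With members at 10 FPKM or more (87), 25 were higher and 28 lower in both clones. At that level the excess of higher over lower members seen in the main setting (80 against 50) was absent. The chromosome 19 median in clone 174 was 0.21. At 2 FPKM or more (372), 150 were higher in both. Shares of all genes at these levels, or at the 1.5-fold used next, were not computed, so these counts have no background beside them. At 1.5-fold, 12 members were higher and 10 lower in clone 114, 31 higher and 9 lower in clone 174 (21 of the higher on chromosome 19), and 37 higher and 13 lower in clone 174 against clone 114. Choosing members without clone 174, an alternative added after the data were seen, left 5 that were 2-fold higher in clone 174, 5 on chromosome 19 and 5 against clone 114. The cause of these shifts was not tested beyond what each setting changes by construction.

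Leaving out a clone leaves 1 library against 1, which has no test; the members' median against the control ranged from -0.01 without clone 174 to 0.13 without clone 114, around 0.08 with both. Of 656 recomputed values of named members, 536 were labelled unchanged, 120 moved and 0 turned round. Unchanged meant within the clones' spread for single-clone values, and the same limma call or sign for values of clones against control. For single-clone values a change of sign was counted only where the main value was at least 2-fold. Smaller values that changed sign are therefore not counted as turned round. No paired analysis was possible because there is 1 control library, so no more than 1 pair can be formed. Low values rest on few fragments: as few as 46.0 for ZNF83 among members and 8.65 for ZNF816 among the switched genes, both in clone 114.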

Other observations

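The cutoff leaves out ZNF genes of lower level. Of 203 with a mean of 1 to below 5 FPKM, both clones lay above the control in 96 (47.3%), against 26.1% of all genes tested, and below it in 33 (16.3%), against 31.8%. In clone 174, 26 (12.8%) were at least 2-fold higher, against 1.93% of all genes. This band is also set by a mean that includes clone 174. ZNF93, a KRAB gene known to bind LINE-1 elements, lies in the same short-arm run as ZNF91 and was at 5.90 FPKM in clone 114, 7.02 FPKM in clone 174 and 1.75 FPKM in the control (limma log2 change 1.44, adjusted p = 1.00). ZNF667 was at 0.546 FPKM in clone 114, 9.18 FPKM in clone 174 and 0.704 FPKM in the control. Its antisense RNA ZNF667-AS1 was at 3.59 FPKM in clone 114, 20.4 FPKM in clone 174 and 2.25 FPKM in the control, and whether the counting used strand is not stated, so reads of the pair cannot be told apart. The genes were chosen after their values were seen.

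Zinc finger genes with other names that lie among the members of the ninth chromosome 19 run were also high in clone 174. ZSCAN18 was at 9.19 FPKM in clone 114, 31.5 FPKM in clone 174 and 8.84 FPKM in the control. ZIK1 was at 6.78 FPKM in clone 114, 21.8 FPKM in clone 174 and 4.75 FPKM in the control. Medians over whole families were as follows. The 36 tested ZBTB genes had -0.01 in clone 114 and 0.15 in clone 174, the 15 ZSCAN genes had -0.11 in clone 114 and 0.14 in clone 174, the 6 ZKSCAN genes had 0.25 in clone 114 and 0.15 in clone 174, and the 14 ZFP genes had -0.00 in clone 114 and 0.23 in clone 174.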
